A study of Mus musculus with 2 samples.

Results

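The γδ T cells described here were picked out of a sort for CD4+ YFP+ cells by their own receptor transcripts. A barcode was taken as a γδ member when it held at least 3 unique molecular identifiers (UMIs, one per captured transcript) of Trdc, the constant segment of the T cell receptor δ chain, and at least 1 UMI of Tcrg-C1, Tcrg-C2 and Tcrg-C4 together, the constant segments of the γ chain. Of 6859 barcodes that kept at least 200 genes and at most 10% mitochondrial UMIs, 722 were γδ members, 127 of 1934 in the Id2-deficient library and 595 of 4925 in the control library. They were set against 5638 comparison T cells, which held a UMI of Cd3d, Cd3e or Cd3g and none of Trdc, 1718 in the Id2-deficient library and 3920 in the control library. Both groups were chosen by the measured UMIs of Trdc, the Tcrg-C genes and the CD3 genes, so the levels of those genes are description only.

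The study had 1 library of droplet 3′ single-cell RNA per genotype. The Id2-deficient library came from mice of genotype Il17Cre/Id2f/f/R26YFP and the control library from Il17Cre/R26YFP mice. Mice of both genotypes carried the Cre and the reporter, had been immunised with MOG/CFA to induce experimental autoimmune encephalomyelitis, and were sampled at the peak of disease; their age and number, and whether animals were pooled, are not given in the labels. The labels disagree on the tissue: the sample titles read DLN, the source is given as spleen and lymph node, and the protocol names spleen. Cre was driven by Il17, so Id2 was deleted, and YFP switched on, in cells that had expressed the Cre at some time, and not in all T cells. With 1 library per genotype, a difference between genotypes cannot be told apart from a difference between libraries, no test was made, and each interval given is a 95% interval for counting error only.

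γδ T cells recognise antigen through a receptor made of a γ and a δ chain in place of α and β chains. In mice a large group of them leaves the thymus already committed to making interleukin 17, depends on transcription factors such as Sox13 and c-Maf, and answers interleukin 1 and interleukin 23 without needing fresh priming. Cells whose γ chain uses the Vγ4 or Vγ6 segment make up most of this group. Id2 is an inhibitor that binds E proteins and keeps them from DNA, and Id3 is its close relative.

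The sequences of the γ constant segments are shown because the gate adds their UMIs together. In the GRCm38 build Trdc lies at chr14:54142851-54148868 on the plus strand, Tcrg-C1 at chr13:19214103-19217024 on the plus strand, Tcrg-C2 at chr13:19304649-19307551 on the minus strand and Tcrg-C4 at chr13:19344558-19352756 on the plus strand. The first 90 coding bases of each γ constant segment (GENCODE M21) follow, 5′ to 3′, with capitals marking bases that differ from Tcrg-C1.
Tcrg-C1: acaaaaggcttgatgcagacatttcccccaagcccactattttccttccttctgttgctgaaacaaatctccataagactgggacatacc
Tcrg-C2: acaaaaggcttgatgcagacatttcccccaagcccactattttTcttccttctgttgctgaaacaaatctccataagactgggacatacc
Tcrg-C4: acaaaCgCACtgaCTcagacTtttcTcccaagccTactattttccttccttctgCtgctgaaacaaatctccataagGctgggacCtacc
Tcrg-C2 differed from Tcrg-C1 at 1 of these bases and Tcrg-C4 at 12. Over the whole coding sequence Tcrg-C1 was 94.6% identical to Tcrg-C2 and 70.8% identical to Tcrg-C4. Over the last 90 bases of the transcript, nearer to where 3′ libraries are read, Tcrg-C1 and Tcrg-C2 were 89.4% identical. Reads of the Tcrg-C1 and Tcrg-C2 pair may therefore have been split between both genes or dropped in counting, and their separate values are uncertain.

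The last 60 coding bases of the variable segments used to divide the members further are shown next, from the same annotation. Tcrg-V6 lies at chr13:19190356-19190929 and Tcrg-V4 at chr13:19184974-19185506, both on the plus strand, and Trdv4 at chr14:54074905-54075515 on the plus strand.
Tcrg-V6: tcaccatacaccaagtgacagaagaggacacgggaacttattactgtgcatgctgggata
Tcrg-V4: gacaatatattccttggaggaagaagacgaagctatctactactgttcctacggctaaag
Trdv4: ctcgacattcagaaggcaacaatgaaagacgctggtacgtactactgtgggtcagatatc
Tcrg-V4 and Tcrg-V6 were 51.7% identical over their coding sequences.

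The Id2-deficient library held 14668624 UMIs and the control library 33646845. Quality filters removed 525 barcodes of the Id2-deficient library and 12 of the control library. γδ members had a median of 8223 UMIs and 2419 genes in the Id2-deficient library, against 6100 UMIs and 2081 genes in the control library. The mitochondrial share of their UMIs had a median of 3.55% in the Id2-deficient library and 1.73% in the control library. Comparison T cells had a median of 4.24% in the Id2-deficient library and 1.75% in the control library. Expression is given as CPM, the UMIs of a gene summed over a group of cells per 1000000 UMIs of that group. No member barcode occurred in both libraries, and 3 barcodes of other cells did.

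γδ members were 6.73% (5.64% to 7.96%, exact Clopper-Pearson interval) of 1886 kept barcodes with a CD3 UMI in the Id2-deficient library, against 12.4% (11.5% to 13.4%) of 4800 in the control library. With every cell thinned to 1000 UMIs and 1 UMI of Trdc and 1 of a Tcrg-C gene asked for, the shares were 2.45% (1.80% to 3.25%) in the Id2-deficient library and 5.25% (4.64% to 5.92%) in the control library. Among cells with 2% to 4% mitochondrial UMIs, a window chosen after the data were seen, the shares were 10.3% in the Id2-deficient library and 11.3% in the control library. The lower share in the Id2-deficient library thus depended on which cells were kept. A sort for CD4 and YFP also sets these shares.

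The gate had few cells near its edge in the Id2-deficient library and many in the control library. A median member held 9 Trdc UMIs in the Id2-deficient library (range 3 to 55), against 5 in the control library (range 3 to 51). With exactly 3 Trdc UMIs, just inside the gate, there were 8 Id2-deficient and 138 control cells, and a Blk UMI was seen in 87.5% of the Id2-deficient and 83.3% of the control cells. With exactly 2, just outside it, there were 3 Id2-deficient and 128 control cells, and a Blk UMI was seen in all 3 Id2-deficient cells and in 73.4% of the control cells. Cells with at least 3 Trdc UMIs and no Tcrg-C UMI numbered 20 in the Id2-deficient library and 16 in the control library. Of these, 1 Id2-deficient and 7 control cells held a Blk UMI, while 14 Id2-deficient and 5 control cells held a Cd4 UMI. The Trdc UMIs of those 20 Id2-deficient cells thus sat mostly beside Cd4 and, in 18 of them, beside Trac.

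The label was checked against markers that the gate did not use. Blk, a Src family kinase of B cells and of interleukin 17 γδ T cells, had 375 CPM in Id2-deficient members and 351 CPM in control members, against 1.76 CPM in Id2-deficient and 4.33 CPM in control comparison T cells. A Blk UMI was seen in 92.9% of Id2-deficient members and 87.2% of control members, against 0.990% of Id2-deficient and 1.63% of control comparison T cells. With each cell thinned to 1000 UMIs, it was seen in 25.2% of Id2-deficient and 31.6% of control members, against 0.234% of Id2-deficient and 0.408% of control comparison T cells. The thinning left out 6 Id2-deficient and 2 control comparison T cells and no member. 5830411N06Rik, which encodes a scavenger receptor related to Cd163l1, had 772 CPM in Id2-deficient and 527 CPM in control members, against 56.9 CPM in Id2-deficient and 24.3 CPM in control comparison T cells. A 5830411N06Rik UMI was seen in 82.7% of Id2-deficient and 79.5% of control members. In comparison T cells it was seen in 15.7% of Id2-deficient and 7.02% of control cells, more often than Blk. Both markers were therefore higher in the members of each library than in its comparison T cells.

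Of 10179 genes measured in the contrast of members with comparison T cells (at least 30 UMIs over both groups in each library), 208, or 2.04%, were at least 2-fold higher in members in both libraries. Of these 208 genes, 198 had counting intervals of the log2 ratio clear of 0 in both libraries. At least 2-fold lower in members in both libraries were 412 genes, or 4.05%, of which 290 had such intervals and 128 had 0 UMIs in at least 1 of the groups compared. The median log2 ratio of members over comparison T cells over all measured genes was −0.10 in the Id2-deficient library and −0.01 in the control library.

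The levels of the γδ receptor genes follow from the gate in large part. All 9 measured genes of the receptor list were at least 2-fold higher in members of both libraries, which the gate fixes for Trdc and the Tcrg-C genes. Trdc had 1483 CPM in Id2-deficient members and 992 CPM in control members and, by the rule, 0 in comparison T cells. Tcrg-C1 had 424 CPM in Id2-deficient and 428 CPM in control members, against 8.78 CPM in Id2-deficient and 19.4 CPM in control comparison T cells. Tcrg-C2 had 332 CPM in Id2-deficient and 319 CPM in control members, against 5.35 CPM in Id2-deficient and 6.73 CPM in control comparison T cells. Tcrg-C4 had 124 CPM in Id2-deficient and 133 CPM in control members, against 2.79 CPM in Id2-deficient and 1.56 CPM in control comparison T cells.

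Most members held UMIs of more than 1 γ constant segment. All 3 segments were seen together in 51 of 127 Id2-deficient members (40.2%) and 207 of 595 control members (34.8%). Tcrg-C1 with Tcrg-C2 alone was seen in 31 Id2-deficient and 149 control members, and Tcrg-C1 by itself in 11 Id2-deficient and 73 control members. Trgv2, the variable segment that lies beside Tcrg-C2 on the minus strand, had 252 CPM in Id2-deficient and 347 CPM in control members, against 3.99 CPM in Id2-deficient and 7.87 CPM in control comparison T cells. It was seen in 66.9% of Id2-deficient and 73.4% of control members. Among members with Tcrg-V6, Trgv2 was seen in 6 of 14 Id2-deficient and 39 of 62 control cells. Among those without Tcrg-V6 it was seen in 79 of 113 Id2-deficient and 398 of 533 control cells. With Tcrg-V4 the numbers were 24 of 36 Id2-deficient and 110 of 144 control cells, and without Tcrg-V4 61 of 91 and 327 of 451.

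**Figure D1:**
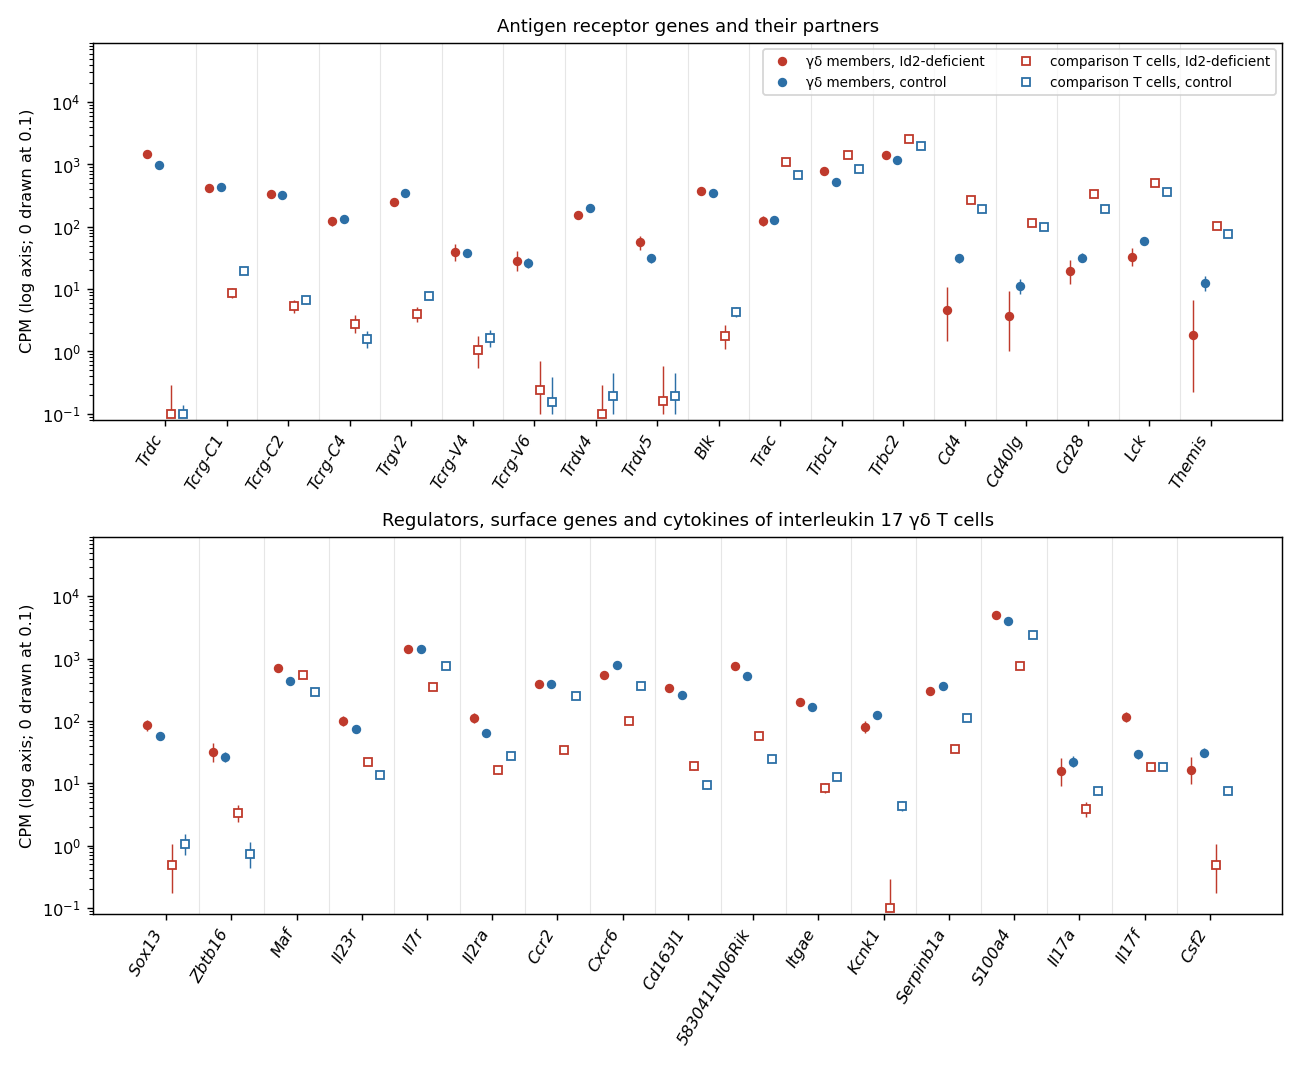
Levels of receptor genes and their partners (top) and of regulator, surface and cytokine genes (bottom) in summed UMIs, as CPM on a log axis with 0 drawn at 0.1. Filled circles are γδ members and open squares comparison T cells, red for the Id2-deficient and blue for the control library, with 95% Poisson intervals as bars. Blk stands at 375 and 351 CPM in members and below 5 CPM in comparison T cells, while Cd4 stands at 4.61 and 31.6 CPM in members.

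Genes of the αβ receptor and its coreceptors were lower in members. Of 13 measured genes of that list, 9 were at least 2-fold lower in both libraries (4.05% of all measured genes were) and none was higher; the median log2 ratio was −3.12 in the Id2-deficient and −2.42 in the control library. Trac, the α constant segment, had 124 CPM in Id2-deficient and 127 CPM in control members, against 1079 CPM in Id2-deficient and 669 CPM in control comparison T cells. The β constant segments missed the 2-fold mark. Trbc2 had 1406 CPM in Id2-deficient and 1192 CPM in control members, against 2587 CPM in Id2-deficient and 1971 CPM in control comparison T cells. Trbc1 had 796 CPM in Id2-deficient and 524 CPM in control members, against 1408 CPM in Id2-deficient and 852 CPM in control comparison T cells.

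With cells thinned to 1000 UMIs, a Trbc2 UMI was seen in 70.9% of Id2-deficient and 61.5% of control members. B cells should lack Trbc2; among cells gated on B cell genes (33 Id2-deficient and 38 control cells, with median depths of 4954 and 3646.5 UMIs before thinning) it was seen in 3.03% of Id2-deficient and 2.63% of control cells. Unthinned, Trbc2 was seen in 100% of Id2-deficient and 96.5% of control members, and Trac in 35.4% of Id2-deficient and 31.6% of control members. The share of members with β constant transcripts therefore stood far above that in the B cell gate. That gate asked for no CD3 UMI, so its share of cells with T cell transcripts may be low by that choice.

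The members came from a sort for CD4 protein, yet they held little Cd4 RNA. Cd4 had 4.61 CPM in Id2-deficient and 31.6 CPM in control members, against 272 CPM in Id2-deficient and 193 CPM in control comparison T cells. Cd40lg, the helper T cell ligand of CD40, had 3.69 CPM in Id2-deficient and 11.1 CPM in control members, against 117 CPM in Id2-deficient and 100 CPM in control comparison T cells. Cd28, the costimulatory receptor, had 19.4 CPM in Id2-deficient and 31.9 CPM in control members, against 331 CPM in Id2-deficient and 195 CPM in control comparison T cells. Themis, a thymic selection protein, had 1.84 CPM in Id2-deficient and 12.5 CPM in control members, against 103 CPM in Id2-deficient and 77.9 CPM in control comparison T cells. Cd5 and Cd6, inhibitory receptors of T cells, were also at least 2-fold lower in members of both libraries. Cd8a was at 0 UMIs in the members of both libraries.

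A small number of members held Cd4 UMIs, and these were the deeper barcodes. They were 4 of 127 members in the Id2-deficient library and 67 of 595 in the control library, with medians of 14869 and 12865 UMIs. Members with no Cd4 UMI had medians of 8210 UMIs in the Id2-deficient library and 5825 UMIs in the control library. Of the Cd4-bearing members, 4 Id2-deficient and 60 control cells also held Trac, and 3 Id2-deficient and 37 control cells were among the top 4% of Scrublet doublet scores. Whether these barcodes held a pair of cells was not tested further. Leaving out members that held a Cd4 UMI, a Cd40lg UMI or at least 3 Trac UMIs leaves 114 Id2-deficient and 507 control members. Ratios between genotypes that were recomputed and changed sign there are given below. The levels of the remaining members, against comparison T cells, are not given.

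Among genes of receptor signalling, members differed from other T cells mainly in which Src family kinase they held. Lck, the kinase of αβ T cells, had 33.2 CPM in Id2-deficient and 59.3 CPM in control members, against 510 CPM in Id2-deficient and 358 CPM in control comparison T cells. Blk was the one gene of the 18 measured that was higher in members of both libraries, and Lck the one that was lower. Of all measured genes 2.04% were higher and 4.05% lower. Cd3g, a shared chain of both receptor kinds, had 1627 CPM in Id2-deficient and 1773 CPM in control members, against 1185 CPM in Id2-deficient and 1261 CPM in control comparison T cells. Zap70, the kinase that binds activated CD3 chains, had 138 CPM in Id2-deficient and 107 CPM in control members, against 132 CPM in Id2-deficient and 92.4 CPM in control comparison T cells. Fyn had log2 ratios of −2.16 in the Id2-deficient and −0.94 in the control library.

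Of 19 measured regulators known from interleukin 17 γδ T cells, 4 were at least 2-fold higher in members of both libraries and 2 were lower, against 2.04% and 4.05% of all measured genes. The list was not higher as a whole, with a median log2 ratio of −0.28 in the Id2-deficient and 0.10 in the control library. Sox13, which sets up this lineage in the thymus, had 84.8 CPM in Id2-deficient and 58.2 CPM in control members, against 0.479 CPM in Id2-deficient and 1.06 CPM in control comparison T cells. Zbtb16, which encodes PLZF of innate-like T cells, had 31.3 CPM in Id2-deficient and 26.1 CPM in control members, against 3.27 CPM in Id2-deficient and 0.722 CPM in control comparison T cells. Blk was another of the 4.

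Other regulators were held at like levels by both kinds of T cell. Maf had 697 CPM in Id2-deficient and 436 CPM in control members, against 547 CPM in Id2-deficient and 292 CPM in control comparison T cells. Rora, a nuclear receptor, had 217 CPM in Id2-deficient and 182 CPM in control members, against 130 CPM in Id2-deficient and 164 CPM in control comparison T cells. Gata3, Stat3, Bcl11b, Runx1, Relb, Ikzf1 and Tcf7 had log2 ratios between −0.84 and 0.44 over both libraries. Lef1, a partner of Tcf7, was lower, with 14.7 CPM in Id2-deficient and 25.4 CPM in control members, against 140 CPM in Id2-deficient and 93.2 CPM in control comparison T cells. Tox2, a gene of follicular helper cells, was the other lower one, at 4.61 CPM in Id2-deficient and 1.34 CPM in control members, against 83.2 CPM in Id2-deficient and 23.6 CPM in control comparison T cells. Batf, Ahr and Tox had log2 ratios of −1.14, −1.03 and −2.03 in the Id2-deficient library and of −0.52, −0.65 and 0.10 in the control library. Hes1 stood at 3.69 CPM in Id2-deficient and 0.446 CPM in control members, 4 and 2 UMIs in all.

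The surface list held the most genes that were higher in members. In both libraries 11 of the 27 genes measured were higher by 2-fold or more, against 2.04% of all measured genes, and 1 was lower; the median log2 ratio was 2.01 in the Id2-deficient and 0.83 in the control library. Cd163l1, a scavenger receptor of γδ T cells also called SCART1, had 332 CPM in Id2-deficient and 260 CPM in control members, against 18.8 CPM in Id2-deficient and 9.27 CPM in control comparison T cells. Itgae, the αE integrin that binds epithelium, had 205 CPM in Id2-deficient and 167 CPM in control members, against 8.38 CPM in Id2-deficient and 12.6 CPM in control comparison T cells. Il23r, the interleukin 23 receptor chain, had 100 CPM in Id2-deficient and 73.1 CPM in control members, against 22.2 CPM in Id2-deficient and 13.6 CPM in control comparison T cells. Il2ra, the high-affinity interleukin 2 receptor chain, had 112 CPM in Id2-deficient and 64.4 CPM in control members, against 16.0 CPM in Id2-deficient and 27.1 CPM in control comparison T cells. The other 7 were 5830411N06Rik, Cxcr6, Kcnk1, Aqp3, Serpinb1a, Actn2 and Gpx1.

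Kcnk1, a potassium channel, had 81.1 CPM in Id2-deficient and 126 CPM in control members, against 0 UMIs in Id2-deficient and 4.29 CPM in control comparison T cells. Set against a floor of 3 counts over the group, it was at least 339-fold higher in Id2-deficient members. Serpinb1a, an inhibitor of serine proteases, had 300.0 CPM in Id2-deficient and 363 CPM in control members, against 35.0 CPM in Id2-deficient and 113 CPM in control comparison T cells. Actn2, an actin crosslinker, had 310 CPM in Id2-deficient and 360 CPM in control members, against 26.1 CPM in Id2-deficient and 129 CPM in control comparison T cells. Il1r2, a decoy receptor for interleukin 1, was the one lower gene, at 1.84 CPM in Id2-deficient and 1.56 CPM in control members, against 25.5 CPM in Id2-deficient and 11.4 CPM in control comparison T cells.

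Ccr2, Il7r and S100a4 were at least 2-fold higher in members of the Id2-deficient library and not of the control library, a difference between libraries that was not tested. Ccr2, a receptor for monocyte chemoattractants, had 395 CPM in Id2-deficient and 384 CPM in control members, against 34.1 CPM in Id2-deficient and 250 CPM in control comparison T cells. Il7r, the survival receptor for interleukin 7, had 1402 CPM in Id2-deficient and 1412 CPM in control members, against 347 CPM in Id2-deficient and 768 CPM in control comparison T cells. S100a4, a calcium-binding protein of effector cells, had 5044 CPM in Id2-deficient and 4015 CPM in control members, against 759 CPM in Id2-deficient and 2385 CPM in control comparison T cells. All 3 genes had lower levels in Id2-deficient than in control comparison T cells. Tmem176a, Tmem176b, Ltb4r1, Lgals3, Tnfrsf25 and Il17re had log2 ratios between 1.19 and 2.99 in the Id2-deficient library and between 0.33 and 0.85 in the control library. Ccr6, Il1r1, Il18r1, Cd44 and Ramp1 had ratios between 0.09 and 0.97 over both libraries, and Icos had −0.89 in the Id2-deficient and −0.70 in the control library.

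The genes that ranked highest in members outside the receptor included several with no listed role in γδ T cells. The ranking took the bound of the interval nearest 0. Abi3bp, an extracellular matrix protein, had 155 CPM in Id2-deficient and 202 CPM in control members, against 0.319 CPM in Id2-deficient and 3.76 CPM in control comparison T cells. Cryba4, a crystallin of the lens, had 213 CPM in Id2-deficient and 209 CPM in control members, against 0.958 CPM in Id2-deficient and 5.70 CPM in control comparison T cells. Ccr10, a skin-homing chemokine receptor, had 136 CPM in Id2-deficient and 131 CPM in control members, against 4.55 CPM in Id2-deficient and 5.40 CPM in control comparison T cells. These genes were spread over many cells, with an Abi3bp UMI in 48.8% of Id2-deficient and 67.7% of control members and a Cryba4 UMI in 72.4% of Id2-deficient and 65.7% of control members. In comparison T cells Abi3bp was seen in 0.233% of Id2-deficient and 1.51% of control cells, and Cryba4 in 0.582% of Id2-deficient and 2.68% of control cells.

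**Figure D2:**
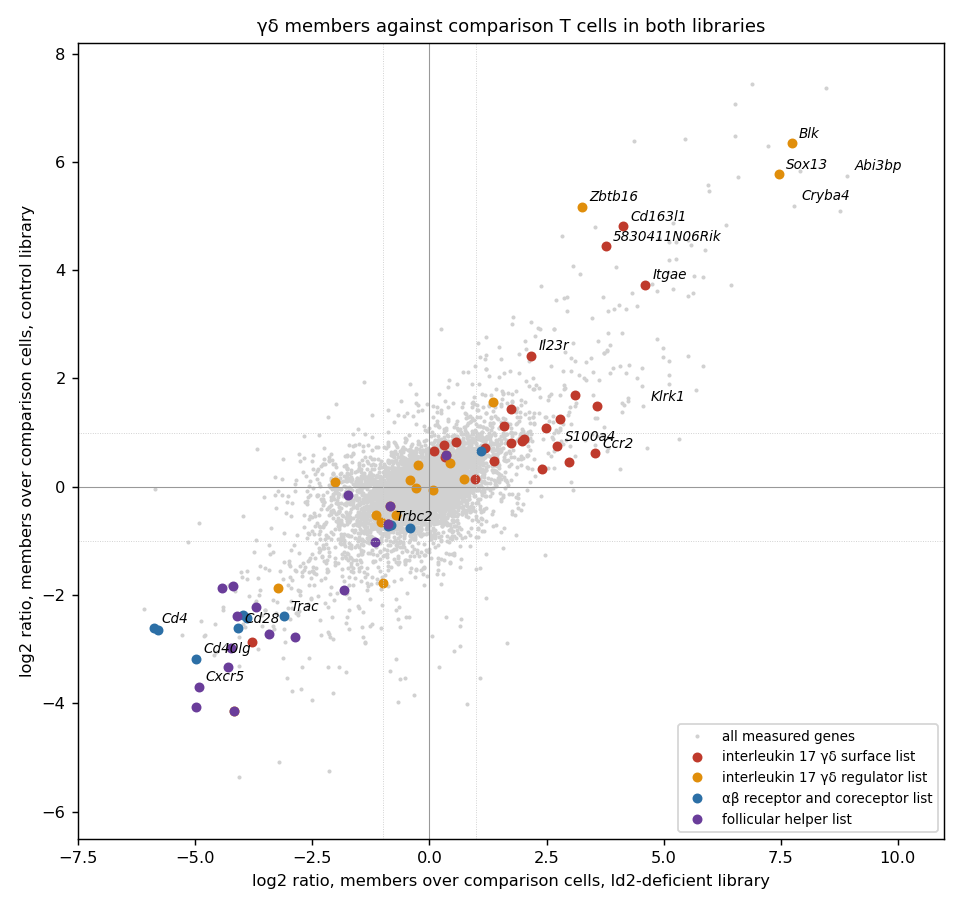
Each point is a gene, at its log2 ratio of γδ members over comparison T cells in the Id2-deficient library (x axis) and in the control library (y axis). Coloured points are genes of 4 lists and grey points all measured genes with UMIs in every group. Blk and Sox13 stand at the upper right, with Blk at 7.74 and 6.34, and Cd4, Cd28 and Cxcr5 at the lower left, with Cd4 at −5.88 and −2.61.

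Of 14 measured cytokine genes, Il17a was the one at least 2-fold higher in members of both libraries and 8 were lower, against 2.04% higher and 4.05% lower of all measured genes. Il17a had 15.7 CPM in Id2-deficient and 22.1 CPM in control members, from 17 and 99 UMIs, against 3.83 CPM in Id2-deficient and 7.45 CPM in control comparison T cells. Il17f, its partner, had 115 CPM in Id2-deficient and 29.2 CPM in control members, against 18.1 CPM in Id2-deficient and 18.4 CPM in control comparison T cells. Il17f missed the 2-fold mark in the control library alone, where 35.6% of its UMIs in comparison T cells lay in 1 cell. Whether it would pass the mark without that cell was not computed. An Il17f UMI was seen in 23.6% of Id2-deficient and 10.1% of control members and in 0 of 33 Id2-deficient and 0 of 38 control cells of the B cell gate, which by the floor of 3 counts allows shares of up to 9.09% and 7.89%. Members that held Il17a also held Il17f in 7 of 11 Id2-deficient and 11 of 45 control cells, and members without Il17a held it in 23 of 116 Id2-deficient and 49 of 550 control cells.

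Of the other effector cytokines, Il21 and Il22 were lower in members of both libraries, while Ltb and Csf2 had higher levels in members. Ifng, the cytokine of the other large γδ group, had 0 UMIs in Id2-deficient and 5.57 CPM in control members, against 3.03 CPM in Id2-deficient and 38.9 CPM in control comparison T cells. Il22 had 4.61 CPM in Id2-deficient and 0.891 CPM in control members, against 42.7 CPM in Id2-deficient and 30.1 CPM in control comparison T cells. Of the Il22 UMIs of control comparison T cells, 53.1% lay in 1 cell. Il21, a follicular helper cytokine, had 1.84 CPM in Id2-deficient and 0.669 CPM in control members, against 58.4 CPM in Id2-deficient and 11.2 CPM in control comparison T cells. Csf2, which encodes GM-CSF, had 16.6 CPM in Id2-deficient and 31.0 CPM in control members, against 0.479 CPM in Id2-deficient and 7.45 CPM in control comparison T cells, but had too few UMIs in the Id2-deficient library to be called. Ltb, the membrane subunit of lymphotoxin, had 1658 CPM in Id2-deficient and 1575 CPM in control members, against 945 CPM in Id2-deficient and 958 CPM in control comparison T cells.

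Genes that mark interferon γ producing γδ T cells were mostly lower in members. Of 15 measured, 10 were at least 2-fold lower in both libraries and 1 was higher, against 4.05% and 2.04% of all measured genes. Cd27, the costimulatory receptor of that group, had 29.5 CPM in Id2-deficient and 7.80 CPM in control members, against 149 CPM in Id2-deficient and 43.0 CPM in control comparison T cells. Cxcr3, a receptor for interferon-induced chemokines, had 9.22 CPM in Id2-deficient and 17.2 CPM in control members, against 75.1 CPM in Id2-deficient and 80.7 CPM in control comparison T cells. Klrk1, which encodes the activating receptor NKG2D, was the higher one, with 195 CPM in Id2-deficient and 117 CPM in control members, against 8.22 CPM in Id2-deficient and 42.0 CPM in control comparison T cells. Gzmb, the protease granzyme B, had 9.22 CPM in Id2-deficient and 81.8 CPM in control members, against 1.20 CPM in Id2-deficient and 8.66 CPM in control comparison T cells.

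Follicular helper genes were lower in members. Of 18 measured, 14 were at least 2-fold lower in both libraries and none was higher, against 4.05% and 2.04% of all measured genes, with a median log2 ratio of −3.57 in the Id2-deficient and −2.30 in the control library. Cxcr5, which guides cells into follicles, had 2.77 CPM in Id2-deficient and 1.11 CPM in control members, against 84.3 CPM in Id2-deficient and 14.4 CPM in control comparison T cells. Izumo1r, the folate receptor of helper and regulatory T cells, had 11.1 CPM in Id2-deficient and 6.24 CPM in control members, against 218 CPM in Id2-deficient and 62.3 CPM in control comparison T cells. Slamf6, Tnfsf8, Cd200 and Btla were lower in both libraries too. Pdcd1, the inhibitory receptor PD-1, had 30.4 CPM in Id2-deficient and 33.2 CPM in control members, against 102 CPM in Id2-deficient and 37.0 CPM in control comparison T cells, and missed the mark in the control library. Of 9 measured inhibitory receptors 5 were lower, among them Ctla4, with 4.61 CPM in Id2-deficient and 5.13 CPM in control members, against 77.4 CPM in Id2-deficient and 35.3 CPM in control comparison T cells.

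Of 15 measured genes of naive and memory T cells, 8 were lower in members of both libraries and none was higher. Of all measured genes 4.05% were lower and 2.04% higher. Satb1, a chromatin organiser, had 69.1 CPM in Id2-deficient and 61.3 CPM in control members, against 215 CPM in Id2-deficient and 173 CPM in control comparison T cells. Of 21 measured migration genes, 3 were higher (Itgae, Ccr10 and Cxcr6) and 4 were lower (among them Itga4, Cxcr3 and Cxcr5), against the same shares of all measured genes. Itga4, a chain of the integrin VLA-4 that binds inflamed vessels, had 12.0 CPM in Id2-deficient and 45.2 CPM in control members, against 144 CPM in Id2-deficient and 233 CPM in control comparison T cells.

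Some lists of general cell functions held no gene past the 2-fold mark and others held a few. Of all measured genes 2.04% were higher in members of both libraries and 4.05% lower. None of 22 measured glycolysis genes, 13 mitochondrially encoded genes or 30 cell cycle genes was at least 2-fold higher or lower in members of both libraries. Of 18 lipid genes, Plin2 and Plin3, which coat lipid droplets, were higher and 3 were lower, among them Fabp4 and Fabp5. Plin3 had 116 CPM in Id2-deficient and 120 CPM in control members, against 40.4 CPM in Id2-deficient and 42.4 CPM in control comparison T cells. Fabp5, a fatty acid carrier, had 27.7 CPM in Id2-deficient and 67.1 CPM in control members, against 112 CPM in Id2-deficient and 168 CPM in control comparison T cells. Of 18 apoptosis genes Bcl2 alone was lower, with 39.6 CPM in Id2-deficient and 36.8 CPM in control members, against 91.3 CPM in Id2-deficient and 96.4 CPM in control comparison T cells. Of 23 interferon response genes 2 were lower, Ifi27l2a and Slfn1, and of 19 immediate early and stress genes 2 were lower, Egr2 and Egr3. Ifi27l2a had 209 CPM in Id2-deficient and 336 CPM in control members, against 2722 CPM in Id2-deficient and 1453 CPM in control comparison T cells.

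Markers of other cell types were summed over the members. The 10 B cell markers summed to 641 CPM in Id2-deficient and 4726 CPM in control members, against 392 CPM in Id2-deficient and 1507 CPM in control comparison T cells, with 5 of 10 at 0 in Id2-deficient and 2 of 10 in control members. In control members 97.9% of the Ighm UMIs and 99.5% of the Igkc UMIs lay in 1 cell. Cd79b, a B cell receptor chain, did not follow that cell. It had 182 CPM in Id2-deficient and 149 CPM in control members, against 9.10 CPM in Id2-deficient and 12.5 CPM in control comparison T cells, and was seen in 69.3% of Id2-deficient and 60.8% of control members. The 8 neutrophil markers summed to 3.69 CPM in Id2-deficient and 122 CPM in control members, with 6 of 8 at 0 in Id2-deficient and 2 of 8 in control members. In comparison T cells they summed to 2.31 CPM in the Id2-deficient and 1450 CPM in the control library. The 10 monocyte markers summed to 28.6 CPM in Id2-deficient and 23.0 CPM in control members, with 3 and 1 at 0. The 8 dendritic markers summed to 253 CPM in Id2-deficient and 305 CPM in control members, with 5 at 0 in each. In comparison T cells the dendritic markers summed to 144 CPM in the Id2-deficient and 209 CPM in the control library. Cst3 alone had 251 CPM in Id2-deficient and 305 CPM in control members.

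The 10 NK cell markers summed to 17.5 CPM in Id2-deficient and 9.80 CPM in control members, with 7 at 0 in each. The 8 innate lymphoid markers summed to 14.8 CPM in Id2-deficient and 9.58 CPM in control members, with 5 at 0 in Id2-deficient and 3 in control members. The 6 markers of invariant NKT and MAIT cells summed to 34.1 CPM in Id2-deficient and 35.2 CPM in control members, against 26.9 CPM in Id2-deficient and 13.8 CPM in control comparison T cells. In members 4 of them were at 0 in each library, and the markers seen included Zbtb16. The 6 Treg markers summed to 301 CPM in Id2-deficient and 218 CPM in control members, against 277 CPM in Id2-deficient and 207 CPM in control comparison T cells. Red cell markers summed to 0 in Id2-deficient and 23.4 CPM in control members, the 2 CD8 markers to 0 in Id2-deficient and 0.446 CPM in control members, and all 6 mast cell and basophil markers were at 0 in both. What part these other-cell transcripts had in the values above was not tested, beyond the values given for single cells.

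The members could be divided by the variable segments they held, though a 3′ library reads these far from its end and misses many. Tcrg-V6 was seen in 14 of 127 Id2-deficient members (interval 6.16% to 17.8%) and in 62 of 595 control members (8.08% to 13.2%). Tcrg-V4 was seen in 36 Id2-deficient members (28.3%, 20.7% to 37.0%) and in 144 control members (24.2%, 20.8% to 27.9%). Trdv4, the δ segment that pairs with Vγ6, was seen in 27 Id2-deficient members (21.3%, 14.5% to 29.4%) and in 146 control members (24.5%, 21.1% to 28.2%). These shares had overlapping intervals between libraries. Trdv5 was seen in 40 Id2-deficient members (31.5%) and 119 control members (20.0%), but it lies on the minus strand across the end of Trdc, at chr14:54148662-54149294, so that its reads and those of Trdc cannot be told apart unless counting used strand, which is not stated. Tcrg-V1 was seen in 6.30% of Id2-deficient and 8.07% of control members.

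Tcrg-V6 and Trdv4 were seen in the same cells. All 14 Id2-deficient members with Tcrg-V6 and 58 of 62 control members with it also held Trdv4. Without Tcrg-V6, Trdv4 was seen in 13 of 113 Id2-deficient and 88 of 533 control members. Tcrg-V4 and Tcrg-V6 were seen together in 0 Id2-deficient and 4 control members. Zbtb16 was seen in 8 of 14 Id2-deficient and 20 of 62 control members with Tcrg-V6, against 20 of 113 Id2-deficient and 74 of 533 control members without it. A Tcrg-V6 UMI thus went with a higher share of cells holding Zbtb16 in both libraries. The cells of a library are not replicates, and this link was not tested.

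Cells with Tcrg-V6 or Trdv4 and no Tcrg-V4 (26 Id2-deficient and 127 control members) were set against cells with Tcrg-V4 and neither of the others (35 Id2-deficient and 121 control members). These groups were defined after the data were seen, and left out members with both kinds (1 Id2-deficient and 23 control) or neither (65 Id2-deficient and 324 control). In both libraries 11 genes were higher by 2-fold or more in the Tcrg-V6 or Trdv4 cells and 6 were lower, out of 2479 measured, counting the segments that define the groups. Cd163l1 had 1109 CPM in Id2-deficient and 764 CPM in control Tcrg-V6 or Trdv4 cells, against 143 CPM in Id2-deficient and 129 CPM in control Tcrg-V4 cells. Its relative 5830411N06Rik went the other way, with 186 CPM in Id2-deficient and 166 CPM in control Tcrg-V6 or Trdv4 cells, against 884 CPM in Id2-deficient and 607 CPM in control Tcrg-V4 cells. These neighbouring genes on chromosome 7 thus marked opposite groups of members.

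Il17f was higher in the Tcrg-V4 cells than in the Tcrg-V6 or Trdv4 cells of both libraries. It had 40.5 CPM in Id2-deficient and 14.0 CPM in control Tcrg-V6 or Trdv4 cells, from 10 and 14 UMIs, against 170 CPM in Id2-deficient and 46.0 CPM in control Tcrg-V4 cells, from 50 and 46 UMIs. Il1r1, the interleukin 1 receptor, was higher in the Tcrg-V6 or Trdv4 cells, with log2 ratios of 1.07 in the Id2-deficient and 1.38 in the control library. Ckb, brain creatine kinase, had ratios of 2.12 in the Id2-deficient and 2.15 in the control library, and Auts2, a chromatin regulator, had 3.84 and 5.09 from small counts. Gbp2, an interferon-induced GTPase, was lower in them, with −1.51 in the Id2-deficient and −1.15 in the control library.

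**Figure D3:**
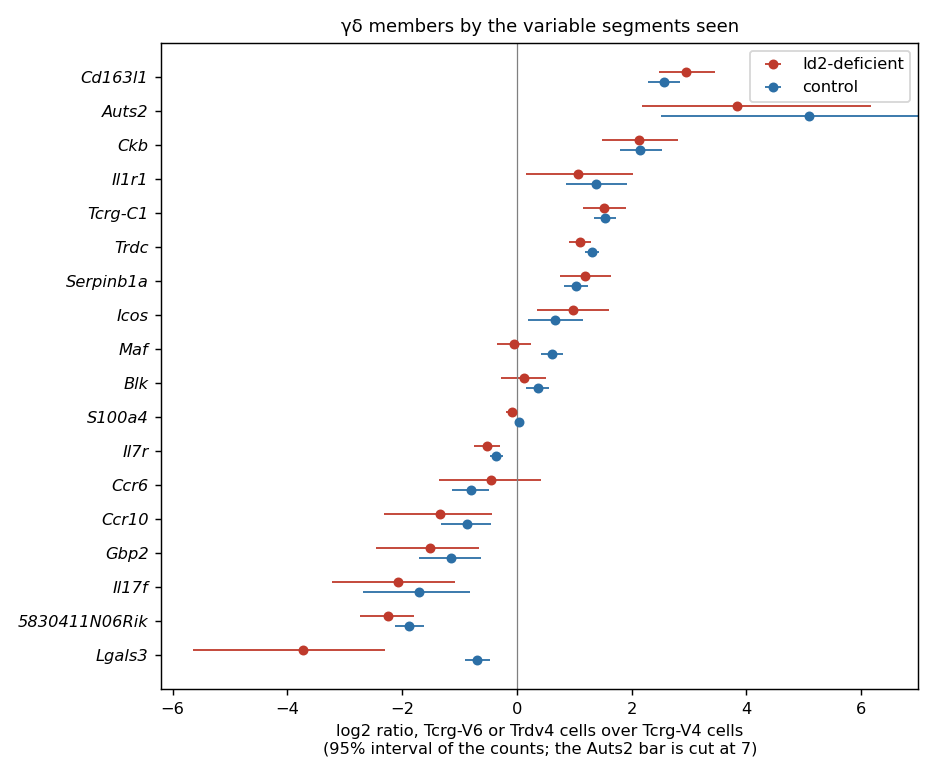
Log2 ratio of members with Tcrg-V6 or Trdv4 over members with Tcrg-V4 for 18 genes, in the Id2-deficient (red) and the control library (blue), with 95% intervals for counting error. Cd163l1 lies at 2.96 and 2.57 and 5830411N06Rik at −2.25 and −1.87, on opposite sides of 0 in both libraries.

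The genotype labels were checked on Id2 in the members. Id2 had 22.1 CPM (24 UMIs) in Id2-deficient and 441 CPM (1980 UMIs) in control members, a log2 ratio of −4.32 (−4.96 to −3.74). In comparison T cells it had 11.6 CPM in the Id2-deficient and 313 CPM in the control library, a log2 ratio of −4.76. An Id2 UMI was seen in 7.87% of Id2-deficient and 85.5% of control members. Thinned to 1000 UMIs the shares were 1.57% of Id2-deficient and 33.9% of control members, against 0 of 33 Id2-deficient and 0 of 38 control B gate cells. Id3 moved the opposite way, with 137 CPM in Id2-deficient and 16.9 CPM in control members, a log2 ratio of 3.02 (2.61 to 3.44). In comparison T cells Id3 had 217 CPM in the Id2-deficient and 44.4 CPM in the control library, a log2 ratio of 2.29. Its UMIs were seen in 53.5% of Id2-deficient and 8.40% of control members. Thinned to 1000 UMIs, Id3 was seen in 14 of 127 Id2-deficient and 11 of 595 control members, against 4 of 33 Id2-deficient and 7 of 38 control B gate cells. Whether the B gate cells made this Id3 themselves was not tested, so they give no background for it.

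The measured E proteins, which Id2 and Id3 bind, had log2 ratios between 0.77 and 0.93 in members. Tcf3 had 32.3 CPM in Id2-deficient and 18.9 CPM in control members, and Tcf12 had 58.1 CPM in Id2-deficient and 30.5 CPM in control members. Tcf3 had a ratio of 0.38 and Tcf12 of 1.15 in comparison T cells. Neither passed the 2-fold mark in members.

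Of 8635 genes measured over the members of both libraries, 278, or 3.22%, were at least 2-fold higher in Id2-deficient members, and 256 of these had an interval clear of 0. At least 2-fold lower were 418 genes, or 4.84%, of which 286 had such an interval. The median log2 ratio over all of them was −0.05 in members and 0.06 in comparison T cells. Of 11 measured genes of the γδ receptor none was 2-fold apart, with ratios in both directions and a median of −0.01. None of 17 measured regulators was 2-fold apart either, and of 26 surface genes Lgals3 alone was lower. With so few genes a list, these counts lie near the shares over all genes.

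Il17f was the one cytokine at least 2-fold higher in Id2-deficient members, of 9 measured, and Tnfsf11 was lower, against 3.22% and 4.84% of all measured genes. Il17f had 115 CPM (125 UMIs, 23.6% of cells) in Id2-deficient and 29.2 CPM (131 UMIs, 10.1% of cells) in control members, a log2 ratio of 1.98 (1.62 to 2.35). Its log2 ratio in comparison T cells was −0.02 (−0.25 to 0.21), but 35.6% of its UMIs in control comparison T cells lay in 1 cell. The ratio without that cell was not computed. Among cells with 2% to 4% mitochondrial UMIs the ratio in members was 3.88. Il17a had a log2 ratio of −0.49 (−1.33 to 0.26) in members, so it was not detectably different at these counts. Thinned to 1000 UMIs, Il17f was seen in 8 of 127 Id2-deficient and 12 of 595 control members. Within the Tcrg-V4 cells alone Il17f had 170 CPM in Id2-deficient and 46.0 CPM in control cells, and within the Tcrg-V6 or Trdv4 cells 40.5 CPM in Id2-deficient and 14.0 CPM in control cells, so it was higher in the Id2-deficient library in both groups. Whether this difference between libraries was larger in members than in comparison T cells was not tested.

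Among surface and signalling genes a few differed. Lgals3, the lectin galectin-3, had 160 CPM in Id2-deficient and 384 CPM in control members, a log2 ratio of −1.26, and −3.34 in comparison T cells. Ly6a, the interferon-induced antigen Sca-1, had 2742 CPM in Id2-deficient and 1108 CPM in control members, a log2 ratio of 1.31 (1.24 to 1.37), and 0.13 in comparison T cells. Txk, a Tec family kinase, had 157 CPM in Id2-deficient and 76.9 CPM in control members, a log2 ratio of 1.03, and 0.30 in comparison T cells. Maf had 697 CPM in Id2-deficient and 436 CPM in control members, a log2 ratio of 0.68, and 0.91 in comparison T cells. Sox13 had 84.8 CPM in Id2-deficient and 58.2 CPM in control members, a log2 ratio of 0.54.

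**Figure D4:**
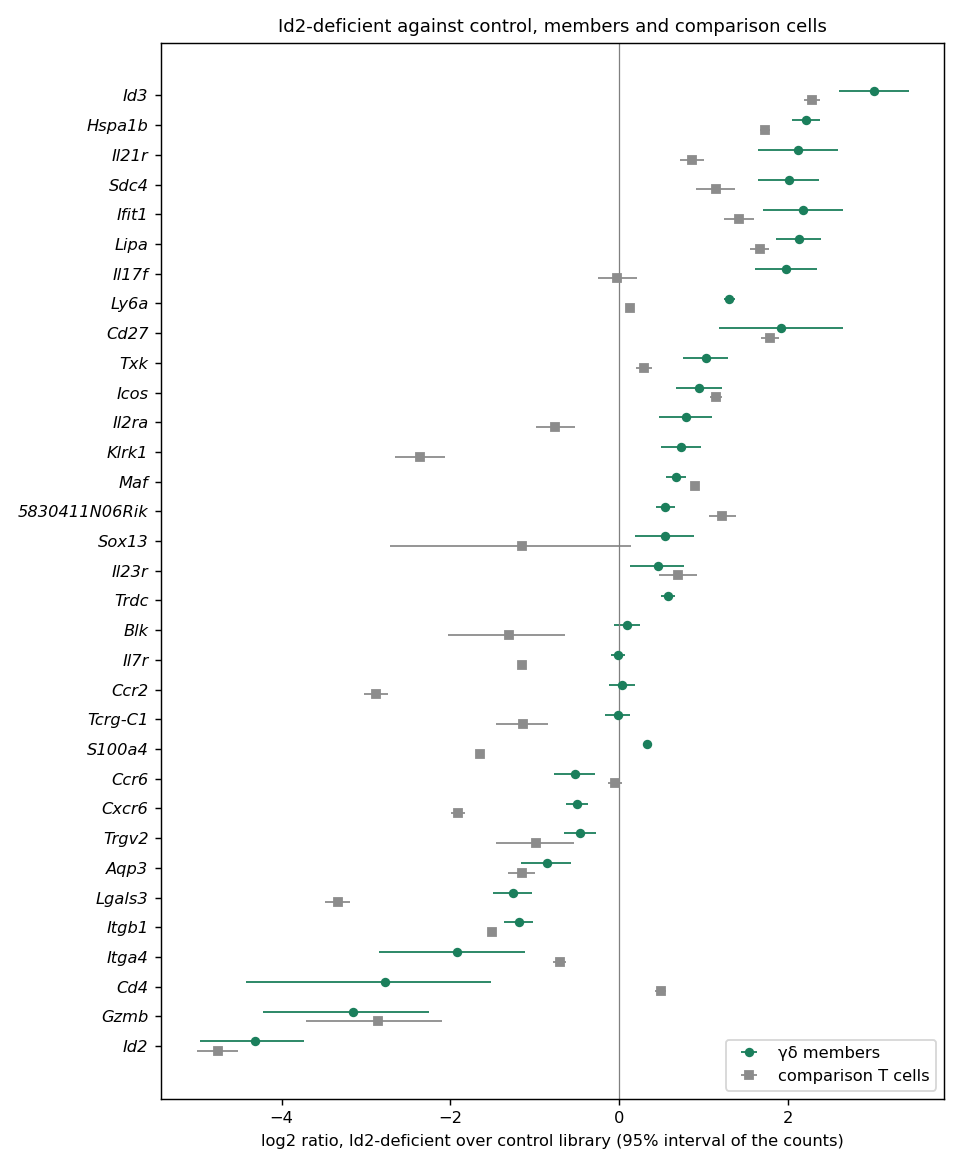
Log2 ratio of the Id2-deficient over the control library for 33 genes, in γδ members (green circles) and comparison T cells (grey squares), with 95% intervals for counting error. Id2 lies at −4.32 and −4.76 and Id3 at 3.02 and 2.29, while Il17f lies at 1.98 in members and at −0.02 in comparison T cells. Of the Il17f UMIs of control comparison T cells, 35.6% lay in 1 cell.

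The genes that ranked highest in Id2-deficient members after Id3 were of several kinds. Il21r, the interleukin 21 receptor, had 72.8 CPM in Id2-deficient and 16.7 CPM in control members, a log2 ratio of 2.12, and 0.87 in comparison T cells. Sdc4, a heparan sulfate proteoglycan, had 118 CPM in Id2-deficient and 29.2 CPM in control members, a log2 ratio of 2.02, and 1.15 in comparison T cells. Lipa, the lysosomal acid lipase, had 217 CPM in Id2-deficient and 49.5 CPM in control members, a log2 ratio of 2.13, and 1.67 in comparison T cells. St6gal1, a sialyltransferase, had 112 CPM in Id2-deficient and 25.2 CPM in control members, and Pcsk1, a prohormone convertase, had 47.9 CPM in Id2-deficient and 8.47 CPM in control members. Tnfrsf26, a decoy receptor of the TNF receptor family, had 29.5 CPM in Id2-deficient and 5.35 CPM in control members.

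Of 22 measured interferon response genes, 9 were at least 2-fold higher in Id2-deficient members and none lower, against 3.22% and 4.84% of all measured genes, with a median log2 ratio of 0.82 in members and 0.41 in comparison T cells. Ifit1 had 74.7 CPM in Id2-deficient and 16.5 CPM in control members, a log2 ratio of 2.18, and Iigp1, an interferon-induced GTPase outside that list, had 113 CPM in Id2-deficient and 23.8 CPM in control members. Isg15, a ubiquitin-like interferon target, had 24.0 CPM in Id2-deficient and 24.3 CPM in control members and did not differ detectably. The naive genes Cd27 and Actn1 were at least 2-fold higher in Id2-deficient members, with Cd27 at a log2 ratio of 1.92 in members and 1.80 in comparison T cells. Il6ra was the one follicular helper gene of 9 that was higher, at 22.1 CPM in Id2-deficient and 7.80 CPM in control members. Fas and Bcl2l1 were higher and Bid lower among 18 apoptosis genes.

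Stress and mitochondrial transcripts differed between the libraries in members and in comparison T cells alike. The heat shock gene Hspa1b had 575 CPM in Id2-deficient and 124 CPM in control members, a log2 ratio of 2.21, and 1.73 in comparison T cells; Hspa1a had 2.24 in members and 1.48 in comparison T cells. AY036118, a transcript from a ribosomal RNA region, had 557 CPM in Id2-deficient and 112 CPM in control members, with log2 ratios of 2.32 in members and 2.31 in comparison T cells. Of 13 mitochondrially encoded genes 6 were at least 2-fold higher in Id2-deficient members, against 3.22% of all measured genes. The list's median was 0.96 in members and 1.12 in comparison T cells. Jun and Fosb were higher as well. The mitochondrially encoded genes make up the mitochondrial share, which was higher in the Id2-deficient library. What part that share or the stress genes had in the other differences between libraries was not tested.

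Gzmb, Nkg7, Cdkn2a and Tppp3 were among the genes lower in Id2-deficient members. Of 13 measured genes of the interferon γ list, 5 were at least 2-fold lower and 2 were higher, against 4.84% and 3.22% of all measured genes. Gzmb had 9.22 CPM (10 UMIs) in Id2-deficient and 81.8 CPM (367 UMIs) in control members, a log2 ratio of −3.15, and −2.86 in comparison T cells. Nkg7, a granule protein, had 0 UMIs in Id2-deficient members and 112 UMIs in 3.53% of control members, at least 9.02-fold lower against a floor of 3 counts over the group. Cdkn2a, the cell cycle inhibitor locus, had 0 UMIs in Id2-deficient members and 72 UMIs in 7.90% of control members, at least 5.80-fold lower by the same floor. Tppp3, a tubulin-binding protein, had 3 UMIs in Id2-deficient and 158 UMIs in control members, 12.7-fold lower (4.28 to 62.4).

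The integrin chains Itga4 and Itgb1 were lower as well. Itga4 had 12.0 CPM in Id2-deficient and 45.2 CPM in control members, a log2 ratio of −1.92, and −0.70 in comparison T cells. Itgb1, its partner chain, had 286 CPM in Id2-deficient and 651 CPM in control members, a log2 ratio of −1.19, and −1.50 in comparison T cells. Of 30 cell cycle genes, 9 were at least 2-fold lower in Id2-deficient members and none higher, against 4.84% and 3.22% of all measured genes. The list's median was −0.80 in members and −0.32 in comparison T cells. Birc5, which guides cell division, had 24.0 CPM in Id2-deficient and 79.6 CPM in control members. Histone genes ranked among the lowest, with Hist1h2ap at 112 CPM in Id2-deficient and 1213 CPM in control members, but 87.7% of its Id2-deficient UMIs and 69.2% of those of Birc5 lay in 1 cell. Without that cell, a choice made after the data were seen, 18 of the 30 cell cycle genes were at least 2-fold lower and the median was −1.50. Among cells with 2% to 4% mitochondrial UMIs (82 Id2-deficient and 168 control members) 9 of 19 measured cell cycle genes were at least 2-fold higher in Id2-deficient members and none lower, with a median of 0.79. Without the same cell 3 of 15 were higher and 1 was lower in that window, with a median of −0.0043. Hist1h2ap had a log2 ratio of 2.59 in the window and −0.57 without the cell, against −3.43 in all members. Pclaf, a replication factor, had 5.50 in the window, from 31 Id2-deficient UMIs and 1 control UMI, against −1.64 in all members. Without the cell, Pclaf had 4.58 and Birc5 2.00 in the window, with 87.5% and 100% of their 16 and 8 Id2-deficient UMIs in 1 cell. The window kept 29 of 5444 control Hist1h2ap UMIs and 3 of 357 control Birc5 UMIs. The direction of the cell cycle list thus differed between all members and the window. In the window its positive median rested on 1 cell. What part the control cells left out by the window had in this difference was not tested.

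Of 11 measured genes of the αβ receptor list, 5 were at least 2-fold lower in Id2-deficient members, against 4.84% of all measured genes. These were Cd4, Cd40lg, Themis, Cd5 and Cd6. Cd4 had a log2 ratio of −2.78 in members and 0.49 in comparison T cells, and Themis had −2.76 in members and 0.40 in comparison T cells. Without members that held Cd4, Cd40lg or at least 3 Trac UMIs, Cd5 had a ratio of 0.15 in place of −1.48; that choice fixes Cd4 and Cd40lg at 0 UMIs, and Themis and Cd6 had no value there. Lck, at 33.2 CPM in Id2-deficient and 59.3 CPM in control members, had 0.69 in place of −0.84.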

How the data were processed

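The authors deposited 1 matrix of raw UMI counts per library, made from Chromium single cell 3′ v2 libraries per the labels' protocols. The submitters' processing notes name Cell Ranger 1.3 and mm10, while the file header of each matrix names Cell Ranger 5.0.1, and the version is left unsettled; no source used here says whether counting used strand. The γδ members and the gene lists were chosen with earlier results of these data known.

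Cells were kept at 200 genes or more and 10% mitochondrial UMIs or less. UMI counts were summed over the cells of a group, since cells are not replicates, and scaled to CPM over all genes of that group. Ratios carry exact conditional binomial intervals, levels exact Poisson intervals and shares Clopper-Pearson intervals, all at 95% and for counting error only. A gene was measured with at least 30 UMIs (over both groups in each library for the contrast of members with comparison cells, over members of both libraries for the genotypes), and called at 2-fold or more. A group at 0 UMIs was set to a floor of 3 counts for bounds. With 1 library per genotype no test was made. The summed depth of members was 1084794 UMIs (Id2-deficient) and 4487505 UMIs (control).

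Named were all measured genes of the receptor, regulator, surface and Id lists, the 15 highest and 15 lowest genes between members and comparison cells, the 12 highest and 12 lowest between genotypes by the interval bound nearest 0, with no cell holding 25% of the higher group's UMIs, and up to 4 genes of each other list. Receptor segments and unnamed predicted genes were counted but not described; some named genes are given by their list's count only, and some results are not reported here. Cd79b, Isg15 and the genes of the segment groups were chosen after their values were seen. The listed genes Tcrg-V2 and Mx1 were not found under these names. A B cell gate (at least 3 UMIs of Cd79a, Cd79b and Ms4a1 together, no CD3 UMI) served as background, though not for Id3. Scrublet called 0.414% of Id2-deficient and 0.0406% of control cells, which was too few to use, so cells were not removed as doublets; leaving out the top 4% of scores was an alternative. Of 32285 gene IDs, 32158 were found in GENCODE M21, which gave positions and sequences on GRCm38. The scripts were tested on simulated counts and used Python 3.11.15, numpy 2.4.6, scipy 1.17.1, pandas 2.3.3, scanpy 1.11.5, Biopython 1.88 and matplotlib 3.10.9.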

Additional observations from a re-analysis of the deposited data

Results flagged for a closer look

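For 14 of the named genes the log2 ratio of Id2-deficient over control had one sign in γδ members and the opposite sign in comparison T cells, with both intervals clear of 0. The difference between the cell groups was not tested, and each value rests on 1 library per genotype. Higher in Id2-deficient members and lower in Id2-deficient comparison T cells were Il2ra with a log2 ratio of 0.79 in members, Klrk1 with 0.73, Plin2 with 0.54, S100a4 with 0.33, Itgae with 0.29, Cd79b with 0.28, Rora with 0.25 and Gpx1 with 0.20. In comparison T cells S100a4 had −1.65, Klrk1 −2.35 and Il2ra −0.75. Lower in Id2-deficient members and higher in Id2-deficient comparison T cells were Lck with −0.84 in members, Lef1 with −0.78, Bcl2a1d with −0.77, Cd28 with −0.72, Ifi27l2a with −0.68 and Ramp1 with −0.19. In comparison T cells Lck had 0.51, Lef1 0.59 and Ifi27l2a 0.91. Lck, Lef1 and Ifi27l2a had the opposite sign in members once those with Cd4, Cd40lg or at least 3 Trac UMIs were left out.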

How the results depend on the processing

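No paired analysis was possible because each genotype has 1 library, and leaving out a replicate was not possible for the same reason. Over 14 settings, 2327 values of single genes were recomputed: 2027 moved by less than their counting interval (or, between members and comparison cells, than the gap between libraries), 281 moved by more and 19 changed sign, and 14 were not given because a group was at 0 UMIs. The cause of each change was not tested, except that stricter settings leave fewer cells or genes by construction.

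The share of members in the control library was 15.1% with at least 2 Trdc UMIs and 7.21% with at least 5, and Cd163l1 had −0.023 between genotypes with at least 5. With members of 3 or more αβ constant UMIs left out, 5 Id2-deficient and 56 control members remained; the shares were 0.265% in the Id2-deficient and 1.17% in the control library, 1698 genes were lower in members, 100 were higher in Id2-deficient members, and the median of the interleukin 17 lists was 1.31. Ccr6 then had 0.47, Aqp3 0.55, Tmem176a 0.13, Tgfb1 0.80, Klf2 0.22 and Itgal −0.23 between genotypes. With at most 5% mitochondrial UMIs the Id2-deficient share was 8.26%. With at least 10 UMIs, 328 genes were higher and 691 lower in members, and 559 higher and 818 lower in Id2-deficient members; with at least 100 UMIs the numbers were 117, 221, 97 and 144 in that order. Thinned to 1000 UMIs the shares were 2.45% in the Id2-deficient and 5.25% in the control library.

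Among settings chosen after the data were seen, leaving out members with Cd4, Cd40lg or at least 3 Trac UMIs gave a control share of 10.6%, and Lck 0.69, Ifi27l2a 0.040, Cd5 0.15, Lef1 0.55 and Slfn1 1.34 between genotypes. Among cells with 2% to 4% mitochondrial UMIs the shares were 10.3% in the Id2-deficient and 11.3% in the control library, 173 genes were higher and 169 lower in Id2-deficient members, and Hist1h2ap had 2.59, Hist1h1b 5.73, Hist1h2ae 4.03, Pclaf 5.50, Tcf7 −0.20, mt-Cytb −0.070 and mt-Nd4 −0.28. Depth limits mainly the 127 Id2-deficient members, where genes with few UMIs have wide intervals.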
